A study of Mus musculus with 7 samples.

Results

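The RNAs described are 7 long non-coding RNAs, Malat1, Neat1, Kcnq1ot1, Gas5, Snhg1, Snhg5 and Snhg12, out of the 51138 genes of the count table. They were taken by symbol, with no numeric threshold, and all 7 were found once and passed the filter on low counts. The names were chosen by a reading of earlier results of these counts, the FP against PBS values of the 7 RNAs, so each difference between the groups is a description of these libraries and is not offered as a test. The samples were regulatory T cells (Tregs), the subset that holds immune responses in check, and were sorted from spleens of RFP-FoxP3 mice, a C57BL/6 line in which Foxp3 cells carry a red fluorescent protein. In 4 samples the mice had received 20 ug of FP, a long-acting fusion of interleukin-2 with CD25, the alpha chain of its receptor. In 3 samples the mice had received 100 uL of PBS, and all 7 were taken 72 h after the injection. PBS is a vehicle and not a control protein, and the ages and sexes of the mice are not given in the labels. Nothing states that each replicate was a separate mouse, so the errors measure the spread between these samples, which may be technical.

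Long non-coding RNAs act as RNA rather than through a protein. Malat1 is an abundant nuclear RNA of the speckles that store splicing factors, Neat1 is the scaffold of the paraspeckles, and Kcnq1ot1 is a very long imprinted RNA that silences neighbouring genes in cis. Gas5, Snhg1, Snhg5 and Snhg12 are small nucleolar RNA (snoRNA) host genes. Their introns release snoRNAs, which guide the modification of ribosomal RNA, while the spliced host RNAs are known to be short-lived and, for Gas5, to be degraded by nonsense-mediated decay during translation. Gas5 and related hosts are also known for a 5′ terminal oligopyrimidine (TOP) start, the run of C and T bases that ties ribosomal protein mRNAs to growth signals.

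The parts of these RNAs that set their class are shown first, in GRCm38 coordinates. Malat1 lies on chromosome 19 at 5795690 to 5802672 on the minus strand, and its annotated exons cover the whole span of 6983 bases. It has no poly(A) tail but a stretch of the genome's own A bases, which folds with T-rich motifs into a triple helix. That stretch is printed from GENCODE M21 (chr19:5795918-5796067, minus strand, written as DNA). Capitals mark the 12-base A tract and 2 T-rich stretches found by a pattern search. Other T-rich stretches before the A tract stay in lower case, and which stretches form the helix was not examined.
Malat1 3′ end: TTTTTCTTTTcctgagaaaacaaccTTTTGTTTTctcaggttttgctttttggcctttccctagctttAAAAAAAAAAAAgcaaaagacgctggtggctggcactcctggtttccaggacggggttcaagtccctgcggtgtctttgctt
The annotation continues for 298 bases after the A tract, the region from which a small tRNA-like RNA is known to be cut. Libraries were made by removing ribosomal RNA from total RNA, so an RNA without a poly(A) tail could be counted.

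The starts of the 4 host genes were taken from RefSeq (GRCm38.p6) and searched on the RNA's strand for a run of at least 5 bases made only of C and T that begins within 5 bases of the annotated start. Each line below runs from 20 bases before the start to 30 bases after it, with the run in capitals. The start at which Gas5 has its run is the second of 2 listed for it.
Gas5, chr1:161035146-161035195, plus strand: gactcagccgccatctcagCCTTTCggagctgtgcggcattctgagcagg
Snhg1, chr19:8723467-8723516, plus strand: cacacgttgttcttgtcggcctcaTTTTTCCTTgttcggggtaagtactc
Snhg12, chr4:132308658-132308707, plus strand: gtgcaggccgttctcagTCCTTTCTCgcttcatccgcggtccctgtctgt
Snhg5, chr9:88522868-88522917, minus strand: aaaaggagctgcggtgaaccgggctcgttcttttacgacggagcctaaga
The run was present in 3 of the 7 RefSeq starts of these long RNAs, in 27 of 76 starts of ribosomal protein genes (35.5%) and in 7238 of all 32851 starts (22.0%). Gas5 gave 2 of those 7 starts, and Neat1 had no listed start and was not searched. A run of this kind describes the window and does not establish a TOP element. For Snhg5 no run began within 5 bases of the listed start.

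The 4 hosts hold 25 annotated snoRNA genes on their own strand: 10 in Gas5, 8 in Snhg1, 5 in Snhg12 and 2 in Snhg5. Snord80 and Snora16a are each annotated more than once at overlapping positions, so the distinct snoRNAs are fewer. Box C/D snoRNAs carry a C box near the 5′ end and a D box near the 3′ end. Of the 25 sequences, 17 hold TGATGA in their first 25 bases together with CTGA in their last 25, and Snord80 is counted more than once among them. The Snora entries in Snhg12 are not named as C/D snoRNAs and hold neither sequence there. The boxes are in capitals in these examples from GENCODE M21, 2 from Gas5 and the pair inside Snhg5.
Snord80, chr1:161037601-161037681, plus strand: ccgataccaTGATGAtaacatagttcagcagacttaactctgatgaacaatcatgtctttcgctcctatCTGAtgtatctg
Snord47, chr1:161038082-161038158, plus strand: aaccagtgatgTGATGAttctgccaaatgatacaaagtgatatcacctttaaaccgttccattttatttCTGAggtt
Snord50a, chr9:88521529-88521600, minus strand: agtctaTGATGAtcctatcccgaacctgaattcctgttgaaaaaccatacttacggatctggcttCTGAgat
Snord50b, chr9:88521797-88521868, minus strand: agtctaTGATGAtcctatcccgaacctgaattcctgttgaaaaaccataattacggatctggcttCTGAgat
Snord50a and Snord50b differ at 1 of 72 bases, C50A counted from the 5′ end with Snord50a first. The counts say almost nothing of these snoRNAs. Only 1 of the 25 had any count, Snora16a in Snhg12, with 2 counts over the 7 libraries together. All 25 overlap annotated host exons, because the annotation includes host transcripts with retained introns or long exons. A read there can overlap 2 genes, and the overlap setting of the counting is not given in the sources used here. Among all annotated snoRNA genes, 19.3% of the 462 shorter than 100 bases, 28.9% of the 1057 of at least 100 and under 200 bases and 48.7% of the 39 longer ones had a count, and the part of length in this was not tested. Values for the hosts are therefore values of the host genes' exonic models and not of the snoRNAs they release.

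Total counts per library ran from 9956509 to 13429878, and levels are given as CPM, counts relative to library size, with library sizes scaled by trimmed mean of M values (TMM). FP replicates 1 and 2 stood apart from the other 5 libraries in abundant small RNAs. Rn7sk, the small RNA of the 7SK particle, took 3.79% and 2.73% of their counts, against 1.28% and 1.07% in FP replicates 3 and 4 and 1.48% to 1.85% in PBS libraries. Rpph1, the RNA of ribonuclease P, took 1.02% and 0.774%, against 0.422% and 0.299% in FP replicates 3 and 4 and 0.48% to 0.61% in PBS libraries. Their TMM factors of 0.839 and 0.85 were also the lowest. Results are therefore also given without these 2 libraries. Markers of the labelled cell type were present: all 7 Treg and T cell markers were tested, and their summed level was 5078 to 5889 CPM in FP libraries and 3155 to 3513 CPM in PBS libraries. Il2ra, Ctla4, Ikzf2 and Tnfrsf18 were called higher in edgeR's test and none was called lower. Il2ra had 2155, 2211, 1844 and 1527 CPM in FP replicates 1 to 4, against 633, 599 and 569 CPM in PBS replicates 1 to 3. Foxp3, Cd3e and Cd4 had log2 fold changes of 0.14, 0.11 and 0.12 and were not called. Whether the share of Tregs differed between the groups was not tested. B cell markers, mostly Ighm, summed to 442 to 560 CPM in FP libraries and 349 to 393 CPM in PBS libraries. All 12 monocyte and macrophage markers were lower after FP, with sums of 73.7, 131, 24.2 and 52.5 CPM in FP replicates 1 to 4, against 734, 1853 and 1302 CPM in PBS replicates 1 to 3. Neutrophil markers summed to at most 1.95 CPM in any library, with Retnlg at 0.

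FP was compared with PBS to see how these RNAs differ in Tregs 72 h after the fusion protein. Malat1 was at less than its PBS level in every FP library, and Snhg12 was also lower, while Gas5, Snhg1 and Snhg5 lay on both sides of PBS. Of the 7 RNAs, 2 were lower and none was higher at an adjusted p under 0.05 in edgeR's quasi-likelihood test over all 15954 genes tested. Over all those genes 18.5% were lower, 21% were higher and 39.5% were either by the same rule. The genes higher made up 53.2% of all calls with TMM, 33.2% under upper-quartile scaling and 28.8% with library size alone, where 4 of the 7 RNAs were lower. The groups did not overlap for 3 of the 7, Malat1, Kcnq1ot1 and Snhg12, all lower. Of all genes tested, 46.7% did not overlap, 23.5% with FP lower and 23.2% with FP higher. The median log2 fold change of the 7 was -0.23, and that of all genes tested was -0.05. Since the RNAs were chosen with results in view, nothing is read from these shares.

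**Figure D1:**
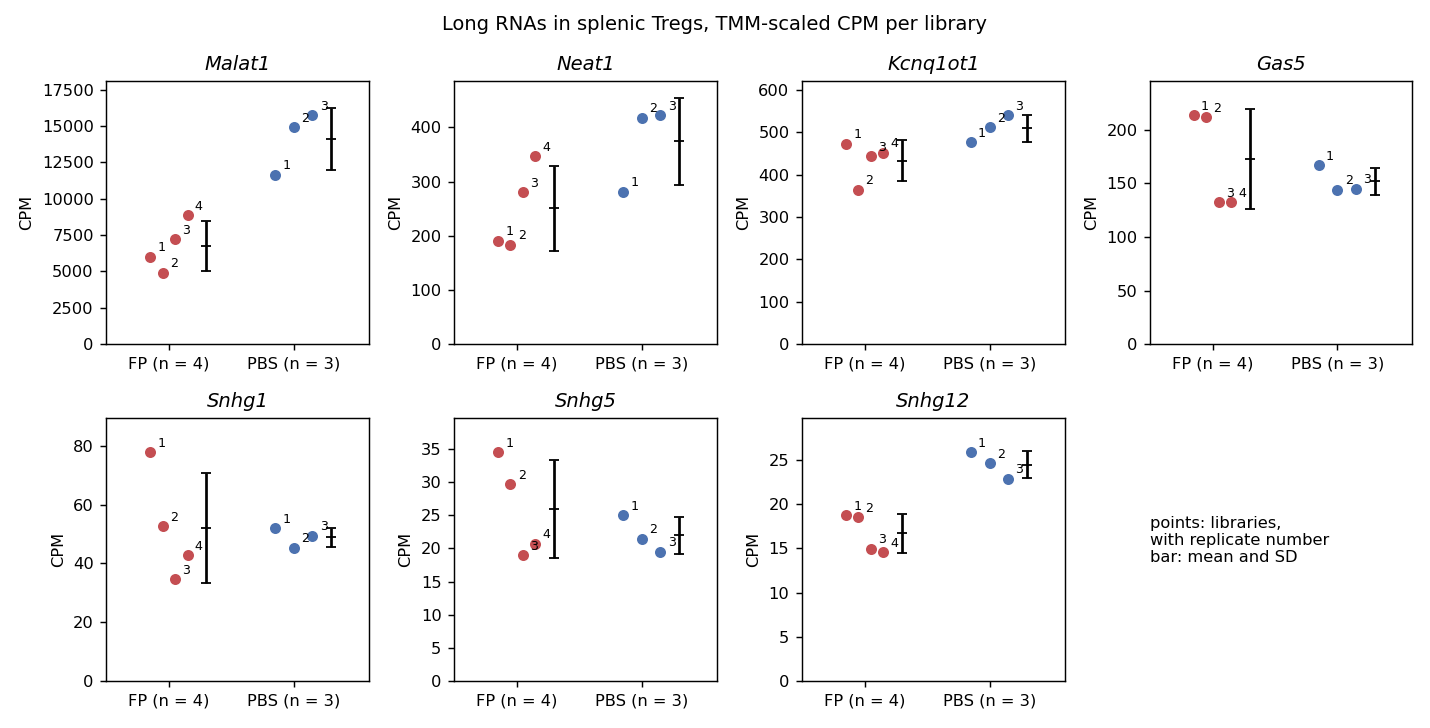
TMM-scaled CPM of each long RNA in every library, FP on the left (red, n = 4) and PBS on the right (blue, n = 3), with replicate numbers beside the points and black bars for the mean and SD. Malat1 and Snhg12 lie below PBS in all 4 FP libraries. On this TMM scale FP replicates 1 and 2 lie above the 3 PBS libraries for Gas5, Snhg1 and Snhg5. As a share of all counts, FP replicate 2 was below all 3 PBS libraries for Snhg1 and below PBS replicate 1 for Snhg5.

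Malat1 stood at 6016, 4914, 7226 and 8861 CPM in FP replicates 1 to 4, against 11668, 14929 and 15737 CPM in PBS replicates 1 to 3. Every FP library was below every PBS library, and the lowest PBS library was the one closest to FP. The means were 6754 ± 1692 CPM in FP libraries and 14111 ± 2154 CPM in PBS libraries (SD, n = 4 and 3), a log2 fold change of -1.06 (SE 0.19). Without FP replicates 1 and 2 it was -0.76. As a share of all counts, Malat1 took 0.638 ± 0.227% in FP libraries and 1.58 ± 0.29% in PBS libraries. Among the genes tested it ranked 8, 8, 4 and 4 by count in FP replicates 1 to 4, and 3, 2 and 2 in PBS replicates 1 to 3. In bulk samples such as these, fewer cells of a type and less RNA per cell cannot be told apart. The macrophage marker sums above were lower in FP libraries in the same direction, and their part in the Malat1 difference was not tested.

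Neat1, which lies on chromosome 19 at 5824708 to 5845478 beside Malat1, had 191, 184, 281 and 346 CPM in FP replicates 1 to 4, against 281, 418 and 422 CPM in PBS replicates 1 to 3. FP replicate 4 was above PBS replicate 1 and FP replicate 3 nearly level with it, so the groups overlapped. The means were 250 ± 78 CPM in FP libraries and 374 ± 80 CPM in PBS libraries, with a log2 fold change of -0.58 (SE 0.24) that was not past the threshold. Without FP replicates 1 and 2 the value was -0.21, and without FP replicate 4 it was -0.78 and past the threshold. The count ratio of Malat1 to Neat1 was 31.5, 26.7, 25.7 and 25.6 in FP replicates 1 to 4 and 41.5, 35.7 and 37.3 in PBS replicates 1 to 3. The ratio was lower in all 4 FP libraries, so the pair did not keep a fixed proportion. Frmd8, a partner of the iRhoms and a protein-coding neighbour of the pair, had a log2 fold change of 0.02 and was not past the threshold.

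Kcnq1ot1, on chromosome 7 at 143203458 to 143296549, had 473, 365, 443 and 453 CPM in FP replicates 1 to 4, against 476, 513 and 540 CPM in PBS replicates 1 to 3. The groups did not overlap, but FP replicate 1 and PBS replicate 1 were nearly level. The log2 fold change was -0.23 (SE 0.11), not past the threshold, and -0.14 without FP replicates 1 and 2. The annotation gives it 93092 bases as 1 exon, lying antisense inside Kcnq1, the potassium channel gene it is named for. Counts assigned to Kcnq1 itself were 0, 2, 0 and 0 in FP replicates 1 to 4 and 2, 14 and 7 in PBS replicates 1 to 3, beside 4115 to 6359 counts of Kcnq1ot1 in FP libraries and 5405 to 7012 in PBS libraries. A count of 0 allows up to 3 counts, between 0.214 and 0.322 CPM over the 7 libraries, and covers counting error only.

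Gas5, on chromosome 1 at 161034422 to 161038539, was the most abundant of the 4 hosts. It had 213, 212, 132 and 132 CPM in FP replicates 1 to 4, against 167, 144 and 145 CPM in PBS replicates 1 to 3. The first pair of FP libraries was above all PBS libraries and the second pair below all of them. As a share of all counts, FP replicates 1 and 2 were nearly level with PBS replicate 1 (0.0179% and 0.018% against 0.0179%). The means of 173 ± 46 CPM in FP libraries and 152 ± 13 CPM in PBS libraries differed by a log2 fold change of 0.18 (SE 0.19), less than the spread among FP libraries. Without FP replicates 1 and 2 the value was -0.15.

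Snhg1, on chromosome 19 at 8723475 to 8726443, had 77.9, 52.7, 34.5 and 42.7 CPM in FP replicates 1 to 4, against 51.9, 45.4 and 49.4 CPM in PBS replicates 1 to 3. FP libraries were again both the highest and the lowest, with a log2 fold change of 0.08 (SE 0.24). It was -0.29 without FP replicates 1 and 2 and -0.17 without FP replicate 1 alone. Snhg5, on chromosome 9 at 88521050 to 88522929, had 34.5, 29.7, 19.01 and 20.7 CPM in FP replicates 1 to 4, against 25.0, 21.4 and 19.5 CPM in PBS replicates 1 to 3. The groups overlapped, and the log2 fold change of 0.24 (SE 0.21) was -0.10 without FP replicates 1 and 2.

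Snhg12, on chromosome 4 at 132308623 to 132311024, was the exception among the hosts. It had 18.8, 18.5, 14.99 and 14.6 CPM in FP replicates 1 to 4, against 25.9, 24.7 and 22.9 CPM in PBS replicates 1 to 3. All 4 FP libraries were below all 3 PBS libraries, with means of 16.7 ± 2.2 CPM and 24.5 ± 1.5 CPM in that order and a log2 fold change of -0.55 (SE 0.14). It was -0.68 without FP replicates 1 and 2. These CPM rest on 164 to 209 counts in FP libraries and 262 to 337 counts in PBS libraries.

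**Figure D2:**
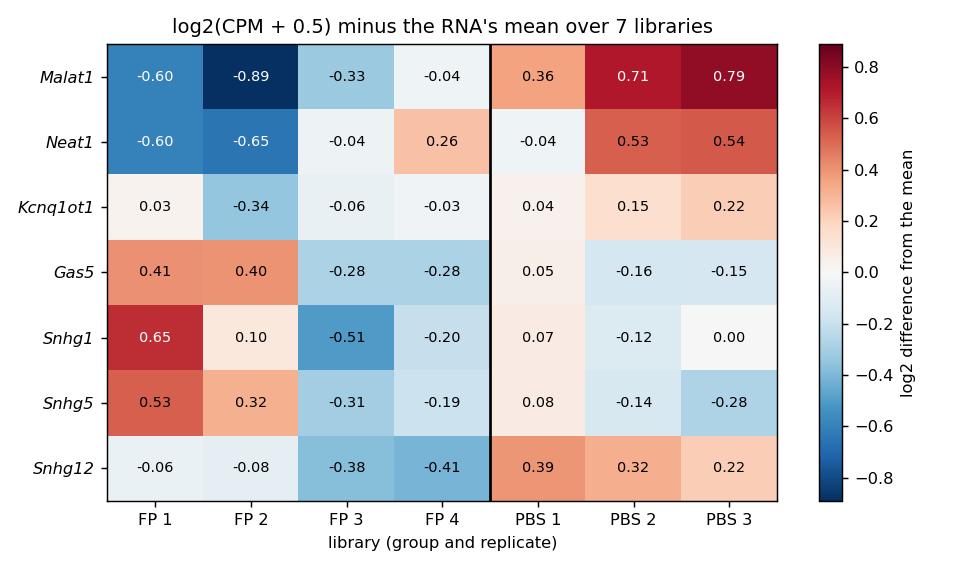
Log2(CPM + 0.5) of each long RNA minus its mean over the 7 libraries, with FP replicates left of the black line and PBS replicates right of it; red is above and blue below the RNA's own mean. On the TMM scale Malat1 and Neat1 are lowest in FP replicates 1 and 2 (-0.60 and -0.89 for Malat1). Gas5 and Snhg5 are highest there on that scale (0.41 and 0.40 for Gas5).

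Within the FP group the 7 RNAs showed 2 opposite patterns on the TMM scale. Malat1 and Neat1 were lower in FP replicates 1 and 2 than in FP replicates 3 and 4. All 4 hosts, Snhg12 included, were higher in FP replicates 1 and 2. Kcnq1ot1 did not separate these libraries on that scale. The host differences were smaller as shares of all counts. Snhg12 took 0.001575%, 0.001573%, 0.001455% and 0.001526% in FP replicates 1 to 4. Snhg1 took 0.00448% in FP replicate 2 and 0.00447% in FP replicate 4, against 0.00508% to 0.00567% in PBS libraries. Snhg5 took 0.00252% in FP replicate 2 and 0.00269% in PBS replicate 1. The sum of the 4 hosts was 345, 313, 201 and 210 CPM in FP replicates 1 to 4, against 270, 236 and 237 CPM in PBS replicates 1 to 3. The share of counts in ribosomal protein genes was also highest in FP replicates 1 and 2, at 5.58%, 5.17%, 3.73% and 2.95% in FP replicates 1 to 4 and 3.79%, 3.21% and 2.95% in PBS replicates 1 to 3. Rn7sk and Rpph1 were also highest in FP replicates 1 and 2, as given above, and the part of these measures in the host values was not tested. Antisense genes were lowest there, as Malat1 was, at 0.336%, 0.278%, 0.405% and 0.461% in FP replicates 1 to 4. In PBS replicates 1 to 3 they took 0.469%, 0.550% and 0.606%. Sense intronic genes took 0.0642%, 0.0503%, 0.0885% and 0.110%, against 0.0953%, 0.108% and 0.126%, in the same order. The part of these classes in the Malat1 and Neat1 values was not tested. As counts, Gas5 stood to Malat1 at 0.0355, 0.0431, 0.0183 and 0.0149 in FP replicates 1 to 4 and at 0.0143, 0.00966 and 0.00922 in PBS replicates 1 to 3. This ratio needs no scaling between libraries and was higher in all 4 FP libraries, narrowly so for FP replicate 4.

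**Figure D3:**
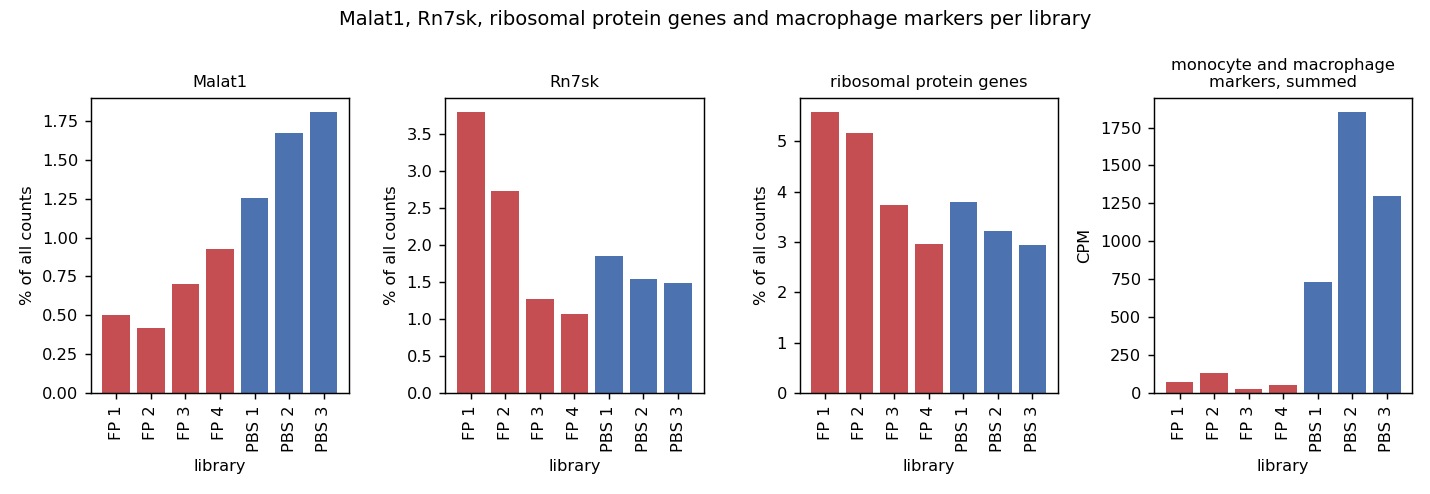
Bars for each library, FP replicates (red) left of PBS replicates (blue): Malat1, Rn7sk and all ribosomal protein genes as a percentage of all counts, and the summed CPM of 12 monocyte and macrophage markers. Malat1 and the macrophage markers are lower in all FP libraries, while Rn7sk and ribosomal protein genes are highest in FP replicates 1 and 2.

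Per kilobase of annotated exon, Malat1 was far above the others. Exon lengths came from GENCODE M21 models, which are newer than those the counts were made on. The models join all annotated transcripts, with retained introns or long exons. They hold 3760 of 4118 bases of Gas5 and the whole spans of Snhg1 (2969), Snhg12 (2402) and Neat1 (20771). Values of CPM per kilobase are therefore too low for any RNA shorter than its model, and the order depends on these lengths. Malat1 had 967 ± 242 CPM per kilobase in FP libraries and 2021 ± 308 in PBS libraries. Gas5 came next with 45.9 ± 12.3 in FP libraries and 40.4 ± 3.4 in PBS libraries, and its ranges overlapped with no other of the 7 RNAs in either group. In FP libraries Snhg1 (17.5 ± 6.3), Snhg5 (15.02 ± 4.27) and Neat1 (12.1 ± 3.7) followed, each overlapping its neighbour in the order. In PBS libraries Neat1 (18.0 ± 3.9) and Snhg1 (16.5 ± 1.1) overlapped, with Snhg5 (12.7 ± 1.6) below all Snhg1 values. Snhg12 (6.96 ± 0.93 in FP libraries and 10.2 ± 0.6 in PBS libraries) and Kcnq1ot1 (4.66 ± 0.51 in FP libraries and 5.48 ± 0.34 in PBS libraries) were the lowest in both groups.

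The protein-coding neighbours of the hosts did not follow one direction. Gas5 starts inside Zbtb37, a zinc finger gene on the opposite strand, and the annotated genes share the bases from 161034422 to 161034849. Zbtb37 had 64.7, 68.3, 77.5 and 111 CPM in FP replicates 1 to 4, against 155, 167 and 167 CPM in PBS replicates 1 to 3. It fell, with no overlap between the groups, and the log2 fold change was -1.02 with an SE of 0.17 (adjusted p = 0.0011). The strand setting of the counting is not given, so reads from the shared bases of Gas5 and Zbtb37 cannot be told apart. Beside Snhg5, Syncrip, an RNA-binding protein gene, rose by 0.24 on the log2 scale (adjusted p = 0.0498) and the zinc finger gene Zfp949 fell with -0.40 (adjusted p = 0.0378). Slc3a2, the amino acid transporter heavy chain whose gene starts on the opposite strand 106 bases from the annotated start of Snhg1, had a log2 fold change of 0.06, and Wdr74, on its other side, -0.29. Trnau1ap, 739 bases from Snhg12, had -0.02, and none of these 3 was past the threshold. Rab42 and Trpm5, the other neighbours of Snhg12 and Kcnq1ot1, had too few counts to be tested.

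Other snoRNA host long RNAs gave 10 tested genes of 13 matched. Of these none rose, 3 fell and 7 were not past the threshold, with a median log2 fold change of -0.08, beside 21% of all genes tested that rose and 18.5% that fell. Snhg17 had 27.5, 28.4, 30.1 and 32.1 CPM in FP replicates 1 to 4, against 50.2, 56.5 and 57.6 CPM in PBS replicates 1 to 3. The FP libraries were close together and all below PBS, and the log2 fold change was -0.89 (SE 0.10) at an adjusted p of 0.00013. The other falls were Snhg20 at -0.82 (adjusted p = 0.00527) and Snhg14 at -0.65 (adjusted p = 0.0221). Zfas1, the host of Snord12 family RNAs, had 43.3, 48.2, 33.3 and 28.9 CPM in FP replicates 1 to 4 and 28.9, 27.4 and 27.3 CPM in PBS replicates 1 to 3 (log2 fold change 0.46, adjusted p = 0.0523). Snhg8, with 49.98, 37.0, 16.8 and 15.7 CPM in FP replicates 1 to 4 and 25.3, 20.0 and 20.8 CPM in PBS replicates 1 to 3, split the FP libraries as Gas5 did. The count of falls was 2 without FP replicate 1, PBS replicate 1 or PBS replicate 3 in turn, and 1 gene rose without FP replicate 3 or FP replicate 4, with DESeq2's size factors or test, with no filter, and with Gm26917, Rn7sk and Rpph1 left out of the scaling.

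**Figure D4:**
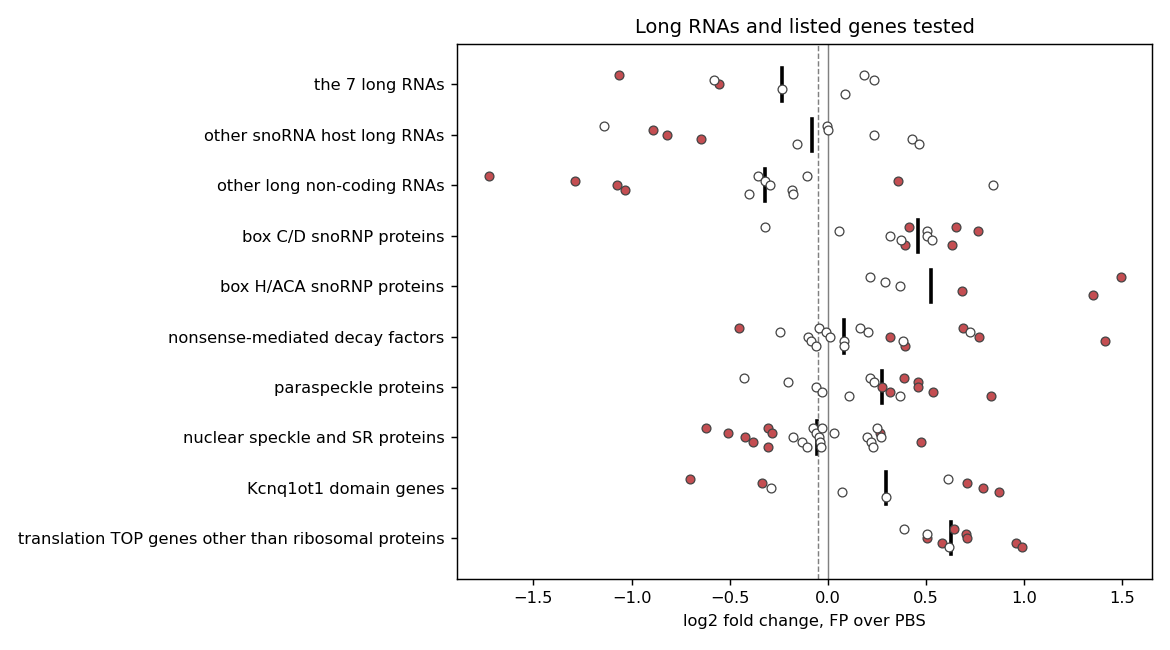
Log2 fold change, FP over PBS, of the 7 long RNAs and of the tested genes of each list; filled points are past an adjusted p of 0.05, black bars are list medians and the dashed line is the median of all genes tested (-0.05). Falls predominate among calls in both lists of long RNAs, and rises, with TMM scaling, among snoRNP and TOP genes.

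Among other studied long RNAs, 13 were tested: 1 rose, 4 fell and 8 were not past the threshold, with a median log2 fold change of -0.32. Over all genes tested 21% rose and 18.5% fell. The falls were Mir155hg, the host of miR-155, at -1.73 (adjusted p = 0.000659), Firre, a nuclear RNA of the X chromosome, at -1.29 (adjusted p = 0.00535), Mir142hg, the host of miR-142, at -1.08 (adjusted p = 0.0122) and Airn, the imprinted antisense RNA of Igf2r, at -1.03 (adjusted p = 0.000237). Mir155hg had 2.68, 1.24, 2.74 and 2.85 CPM in FP replicates 1 to 4, against 7.58, 8.19 and 7.95 CPM in PBS replicates 1 to 3. Airn had 12.7, 15.2, 15.99 and 14.9 CPM in FP replicates 1 to 4, against 26.4, 32.4 and 31.3 CPM in PBS replicates 1 to 3. Both RNAs separated the groups without overlap. The rise was 2900097C17Rik, the mouse Norad RNA that binds Pumilio proteins, at 0.36 (adjusted p = 0.0174), and this call was lost without PBS replicate 2 or PBS replicate 3 and with upper-quartile factors or library size alone. With either of those scalings 8 of the 13 fell. Tug1 (-0.30), Lncpint (-0.18) and Flicr, an RNA next to Foxp3 (-0.18), were the most abundant and were not past the threshold. By annotated class, 102 of 450 tested lincRNA genes fell and 27 rose (22.7% and 6%), with a median of -0.33, while 2368 of 11981 protein-coding genes fell and 3150 rose (19.8% and 26.3%), with a median of 0.03. Antisense genes (median -0.31) and processed transcripts (median -0.37), the classes of Kcnq1ot1 and of 3 of the hosts, also had medians below that of all genes.

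Among box C/D proteins and assembly factors, 5 of 12 rose and none fell, with a median log2 fold change of 0.46, beside 21% of all genes tested that rose and 18.5% that fell. Snu13, the protein that binds the box C/D fold, rose by 0.76 on the log2 scale (adjusted p = 0.0369), and its FP values of 63.7, 46.0, 36.5 and 27.0 CPM reached down to the PBS values of 28.0, 23.1 and 25.2 CPM. The core proteins Nop56 (0.32) and Nop58 (0.50) were not past the threshold. Nolc1, a nucleolar chaperone of snoRNPs, rose by 0.41 (adjusted p = 0.0463). Among box H/ACA proteins 3 of 6 rose and none fell, with Nhp2 at 1.49 (adjusted p = 0.00984) and Nop10 at 0.68 (adjusted p = 0.0412), while Dkc1, the pseudouridine synthase, had 0.37 and was not past the threshold. Nhp2 had 68.3, 48.7, 33.2 and 23.0 CPM in FP replicates 1 to 4, against 16.7, 16.2 and 13.02 CPM in PBS replicates 1 to 3. The C/D count of 5 was 9 without FP replicate 4, 3 without FP replicate 1, 2 without FP replicate 2 or PBS replicate 2, and 0 without PBS replicate 3, without FP replicates 1 and 2 together or with library size alone. With upper-quartile factors it was 2, and 1 gene fell with those factors, with library size alone or without FP replicates 1 and 2. The C/D rises also numbered 2 with limma-voom. The H/ACA count of 3 was 2 without FP replicate 1, FP replicate 2, PBS replicate 2 or PBS replicate 3, and 1 with no filter.

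TOP genes other than ribosomal proteins rose in 7 of 10 cases and fell in none, and their median log2 change was 0.63. Npm1, a nucleolar chaperone, had 943, 827, 493 and 394 CPM in FP replicates 1 to 4, against 392, 316 and 294 CPM in PBS replicates 1 to 3 (log2 fold change 0.99, adjusted p = 0.0319). The elongation factors Eef2 (0.70, adjusted p = 0.00726) and Eef1a1 (0.64, adjusted p = 0.026) rose, and Tpt1 (0.61) was not past the threshold. Ribosomal protein genes had a median of 0.71 over 81 tested, of which 19 rose and none fell, with Rps27l at 2.08 (adjusted p = 0.00723) as the largest rise. The count of rises is near the 21% of all genes tested that rose and is not a result about these genes. Rpl4 (0.63), Rpsa (0.90) and Rplp0 (0.75), the most abundant, rose as well. The count of 19 was 74 without FP replicate 4, 9 without FP replicate 1, 6 without FP replicate 2, 4 without PBS replicate 2 and 2 without PBS replicate 3 or without FP replicates 1 and 2. The TOP count of 7 was 2 without PBS replicate 3. Gas5, Snhg1 and Snhg5 had log2 fold changes of 0.18, 0.08 and 0.24 and were below the medians of both lists. Whether the difference between the hosts and these lists exceeds the spread was not tested.

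Nonsense-mediated decay factors had calls in both directions: 5 of 19 rose, 1 fell and 13 were not past the threshold, with a median log2 fold change of 0.08. Over all genes tested 21% rose and 18.5% fell, so the rises of this list are near the background and are not a result about it. Magoh, of the exon junction complex, rose by 1.41 on the log2 scale (adjusted p = 0.0216) and Upf1, the central helicase, by 0.32 (adjusted p = 0.0289). Smg1, the kinase of Upf1 and the most abundant of the list, fell to 630, 650, 657 and 719 CPM in FP replicates 1 to 4, against 913, 923 and 896 CPM in PBS replicates 1 to 3 (log2 fold change -0.45, adjusted p = 0.00256). The count of rises was 3 without FP replicate 2 or PBS replicate 1 and 2 without PBS replicate 3, and 2 factors fell without FP replicate 4. With upper-quartile factors 3 rose and 5 fell, and with library size alone 3 rose and 4 fell.

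Of the paraspeckle proteins, which assemble on Neat1, 7 of 15 rose and none fell, with a median log2 fold change of 0.28. Over all genes tested 21% rose and 18.5% fell. With upper-quartile factors, however, 2 paraspeckle genes rose and 2 fell, and with library size alone 1 rose and 2 fell. Nono, a core paraspeckle protein, had 349, 360, 304 and 241 CPM in FP replicates 1 to 4, against 191, 180 and 158 CPM in PBS replicates 1 to 3 (log2 fold change 0.83, adjusted p = 0.00125). Its partner Sfpq (0.21) and Hnrnpk (0.37) were not past the threshold. One paraspeckle gene fell without FP replicate 4. Nuclear speckle and SR proteins split, with 2 of 24 higher, 7 lower and 15 not past the threshold, and a median of -0.05, the same as over all genes; with upper-quartile factors 1 was higher and 12 lower, and with library size alone 0 and 11. Srsf3, a splicing factor, rose by 0.47 (adjusted p = 0.0077), and Pnisr, an SR-rich speckle protein, fell with -0.62 (adjusted p = 0.00393). The speckle scaffolds Srrm2 (-0.13) and Son (-0.18) and the splicing factor Sf3b1 (-0.08) were not past the threshold. The speckle falls numbered 2 without FP replicate 2 or any 1 of the PBS replicates, 3 without FP replicate 1, without FP replicates 1 and 2 together or in DESeq2's test, and 4 without FP replicate 3. The speckle rises numbered 6 without FP replicate 4, 4 without FP replicate 1 and 1 when any of the other libraries was left out.

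Genes of the imprinted domain around Kcnq1ot1 gave 9 tested of 14. Of these 3 rose and 2 fell, and 4 were not past the threshold, with a median log2 fold change of 0.30. Over all genes tested 21% rose and 18.5% fell, and nothing about the domain is read from so few calls. Tnfrsf23, a decoy receptor for TRAIL, rose by 0.87 (adjusted p = 0.00977) at a low level of 4.36 ± 0.40 CPM in FP libraries and 2.38 ± 0.29 CPM in PBS libraries. Cd81, a tetraspanin, fell to 43.3 ± 11.2 CPM in FP libraries, against 70.3 ± 8.1 CPM in PBS libraries (log2 fold change -0.70, adjusted p = 0.0107). Tspan32 (-0.29) and Nap1l4 (0.30) were not past the threshold. Cdkn1c, the cyclin-dependent kinase inhibitor that Kcnq1ot1 is known to silence in cis, had 11 to 42 counts per library and a log2 fold change of 0.61 that was not past the threshold. Phlda2 and Ascl2 had at most 3 counts in any library. The 2 falls became 1 without FP replicate 1, FP replicate 2, PBS replicate 1 or PBS replicate 3, and none without PBS replicate 2, and the rises became 2 without PBS replicate 2.

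Genes whose pattern over the 7 libraries lay closest to each long RNA were named by the smallest root mean square difference of log2 CPM, each gene centred on its own mean, among 9575 genes of at least 5 CPM with a regular symbol. With 7 libraries and so many candidates close matches are found for any pattern. Closest to Malat1 were Slc26a10 (0.0941), Dcdc2b and Perm1, and closest to Neat1 were Snx32 (0.0741), Sec61a2 and Ankrd16. For Kcnq1ot1 they were Akap10 (0.045), Qsox2 and Fbxl22, and for Snhg12 they were Pja2 (0.0483), Slc5a6 and Siah1a. Gas5 had Esf1 (0.0415), Smpdl3a and Pex2, Snhg1 had Ankrd49 (0.0914), Med6 and Zfp429, and Snhg5 had Gtpbp4 (0.0666), Gch1 and Ifrd1. Among the long RNAs themselves, Gas5 and Snhg5 were the closest pair at 0.0834, and Malat1 and Neat1 were 0.262 apart. Snhg12 was nearer to Kcnq1ot1 (0.261) than to any of the other hosts.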

How the data were processed

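RNA of 7 samples was measured, 4 FP and 3 PBS. The authors deposited raw counts per gene with no normalization. Per the labels' design text and the submitters' processing notes, they mapped reads to GRCm38 with STAR (2.5.0 or 2.5.0b), counted GENCODE M13 genes with featureCounts 1.5.0 and took a DESeq2 false discovery rate below 0.05 as their threshold. Strand and overlap settings are not given in the sources used here.

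Columns were matched to samples by name, and symbols were found for 50376 of 51138 identifiers. Positions and lengths come from GENCODE M21 of the same build. Counts were tested with edgeR 4.0.16 in R 4.3.3 (filterByExpr, TMM, robust quasi-likelihood fit, Benjamini-Hochberg adjustment over all 15954 genes tested, threshold 0.05), and every adjusted p is from that test. Standard errors (SE) come from its F statistic. On simulated counts of 15613 genes it found 6 of 47 genes with 1.5-fold changes, 31 of 48 with 2-fold changes, 47 of 48 with 4-fold changes and 46 of 46 with 8-fold changes, and 8.45% of 142 calls were false. Few genes were changed in the simulation, whereas 39.5% of the genes tested were called in the data. The rates of the simulation therefore need not hold for the data.

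The long RNAs, the pathway lists and the marker lists were chosen with earlier results of these data known. Named genes were the 7 long RNAs, their snoRNA genes and neighbours, the 3 most abundant members and the largest called rise and fall of each list, and the nearest patterns. Others were named where a count was 5 or fewer, or as Cdkn1c, Phlda2 and Ascl2, after their values were seen. Some genes that the rule took are not reported here. No match was found for Snhg4, Snhg7, Snhg10, Snhg16, Oip5os1 and Morrbid. Alternatives were other scalings, DESeq2 1.42.0, limma-voom (limma 3.58.1), other filters, a replicate block and fits with libraries left out.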

Additional observations from a re-analysis of the deposited data

How the results depend on the processing

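Malat1 (log2 fold change -1.31 to -0.76) and Snhg12 (-0.83 to -0.49) kept their direction and their side of the threshold under all 17 alternatives tried. The number of long RNAs lower after FP was 2 with TMM and 4 with library size alone, and 2 to 3 with 1 library left out in turn. Neat1 was past the threshold with library size alone, with the replicate block and without FP replicate 4. The block, like the fit without FP replicate 4, takes no FP against PBS difference from that library. Kcnq1ot1 was past the threshold with library size alone and with upper-quartile factors. Gas5 changed sign with upper-quartile factors (-0.036), library size alone (-0.11) and without FP replicates 1 and 2 (-0.15). Snhg1 did so at -0.13, -0.21 and -0.29 in the same settings and at -0.17 without FP replicate 1 (-0.17 to 0.24 over the libraries left out), and Snhg5 at -0.051 with library size alone and -0.10 without FP replicates 1 and 2. The median of all genes moved with the scaling, at -0.25 under upper-quartile scaling and -0.31 with library size alone. Relative to that median Gas5, Snhg1 and Snhg5 stayed above 0 with these scalings (0.22, 0.12 and 0.28 under upper-quartile scaling; 0.20, 0.10 and 0.26 with library size alone), and Malat1 stayed at -1.001 and -0.993 in that order.

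Over all genes, the calls were 6308 with TMM and 4088 to 7278 with 1 library left out in turn, lowest without PBS replicate 3. Genes higher were 3355, with 2032 under library size alone and 2314 to 3888 with 1 library left out. Genes lower were 2953, with 4823 under upper-quartile factors, 5033 under library size alone and 1774 to 3390 with 1 library left out. The higher share of calls was 53.2% with TMM, 33.2% under upper-quartile scaling and 28.8% with library size alone. The causes of these shifts were not tested. Ribosomal protein rises numbered 44 in DESeq2's test, 11 in limma-voom, 9 under upper-quartile scaling and 5 with no filter, against 19.

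Replicate numbers were not shown to pair the samples: same-numbered FP and PBS libraries had deviations correlated at 0.22, 0.07 and 0.10, and not every FP library was closest to its own number. FP replicate 4 has no PBS library of its number, so with the block it adds nothing to the FP against PBS difference. With the replicate block 7871 genes were called, 4122 higher and 3749 lower. Among them were 3 of the long RNAs, 10 of the C/D proteins and 79 of the ribosomal protein genes. Of the other hosts 1 rose and 3 fell with the block.

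Leaving Gm26917, Rn7sk and Rpph1 out of the scaling and leaving out FP replicates 1 and 2 together were chosen after seeing the data. Alternatives were not run for the snoRNA genes inside the hosts, since none had enough counts to be tested. The lowest host count, 164 for Snhg12, limits the precision of its values.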
